A study of Mus musculus with 6 samples.

Results

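Small leucine-rich proteoglycans are secreted matrix proteins whose core is a run of leucine-rich repeats, most of them carrying chondroitin, dermatan or keratan sulfate chains. They bind collagen fibrils, set fibril diameter and spacing, and hold growth factors of the TGF-beta family in the matrix, and in arteries and valves they are made mainly by fibroblast-like and smooth muscle cells. The 10 genes described here are Dcn, Bgn and Aspn of class I, Fmod, Lum, Prelp, Kera and Omd of class II, Ogn of class III and Podn of class V. They were taken as every probe set that the platform annotation gives to exactly 1 of these gene symbols, which yielded 21 of the 34945 probe sets with a single gene and 10 of 18193 genes.

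The 3 klotho-deficient arrays held aortic roots of mice carrying 2 mutant copies of klotho, and the 3 wild-type arrays held roots of mice with the wild-type allele on both copies. All mice were albino C57BL/6J of 6 to 6.5 weeks, and each array carried RNA pooled from 3 mice, so the pools are the replicates and the spread between single mice was not measured. The dissected piece joined the leaflets and annulus of the aortic valve to a stretch of the ascending aorta. In such a mixed piece, fewer cells of a type and less RNA per cell cannot be told apart.

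Signals are the deposited linear intensities of single probe sets, and differences are given in log2 units from limma, above 0 where klotho-deficient roots were higher. The highest signal of 27 control probe sets for Bacillus genes, absent from mouse, stood at 161.8. The 10 fibroblast and valve interstitial markers, the 8 smooth muscle markers and the 8 endothelial markers all had mean signals above that level. Y-linked transcripts were above it on klotho-deficient replicate 1 and the 3 wild-type arrays, and below it on klotho-deficient replicates 2 and 3, so the sex of the pools was not balanced between genotypes. Xist, a transcript of female cells, was above it on all 6 arrays (19873.8 to 36290.2). The pools with Y-linked transcripts were therefore not of males alone. Kl itself measured 138.3, 217.4 and 189.1 in the klotho-deficient pools and 166.7, 184.7 and 202.1 on the wild-type arrays, and therefore does not check the labels.

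Most of the genes lie beside each other in the genome. In the RefSeq annotation of GRCm38.p6, Ecm2, Aspn, Omd and Ogn follow each other on chromosome 13, Dcn, Lum, Kera and Epyc on chromosome 10, and Optc, Prelp and Fmod on chromosome 1, while Bgn is on X and Podn on chromosome 4. The 150 bases around the annotated start (100 before it and 50 from it on) are shown for Aspn, Omd and Ogn, neighbours that were lowest on the same arrays, and for Fmod and Prelp, neighbours that were highest on the same array. Sequences are RefSeq's, matched by symbol for 8 of the 10 genes, and run 5′ to 3′ on the strand of the gene. They come from chr13:49544343-49544492 on the plus strand for Aspn, chr13:49582362-49582511 on the plus strand for Omd, chr13:49607915-49608064 on the plus strand for Ogn, chr1:134037154-134037303 on the plus strand for Fmod and chr1:133921352-133921501 on the minus strand for Prelp. Capitals mark E boxes, CANNTG on either strand, the letters that basic helix-loop-helix factors such as scleraxis recognise.
Aspn: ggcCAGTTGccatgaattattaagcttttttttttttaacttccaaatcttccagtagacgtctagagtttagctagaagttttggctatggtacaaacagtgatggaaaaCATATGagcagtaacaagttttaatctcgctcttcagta
Omd: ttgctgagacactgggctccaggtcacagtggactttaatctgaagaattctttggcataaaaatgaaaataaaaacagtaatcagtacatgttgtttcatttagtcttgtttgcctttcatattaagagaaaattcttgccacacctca
Ogn: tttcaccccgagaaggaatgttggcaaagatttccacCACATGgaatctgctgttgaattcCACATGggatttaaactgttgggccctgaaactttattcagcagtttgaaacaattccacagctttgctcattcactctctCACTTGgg
Fmod: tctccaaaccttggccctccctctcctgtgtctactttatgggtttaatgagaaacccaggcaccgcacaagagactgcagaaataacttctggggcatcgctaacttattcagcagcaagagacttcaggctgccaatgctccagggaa
Prelp: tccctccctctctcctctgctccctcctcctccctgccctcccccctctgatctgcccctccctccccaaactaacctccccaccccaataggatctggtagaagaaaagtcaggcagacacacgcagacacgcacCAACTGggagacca

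The windows of Aspn, Ogn and Prelp held an E box and those of Omd and Fmod did not, beside 47.2% of all 32851 promoter windows of this length. The letters TATAAA, known from promoters with a fixed start, occurred in none of the 5 windows on either strand, beside 6.94% of all windows. The letters GGGCGG, which factors of the Sp family recognise, also occurred in none of them, beside 28.8% of all windows.

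None of the 10 genes differed between the genotypes in limma over all genes. The count past an adjusted p of 0.05 was 0 higher and 0 lower among the 10, and 0% of 18193 genes passed in either direction. At an unadjusted p under 0.05 there were 0 of the 10, where 6.41% of all genes lay. The 2 genotypes overlapped in all 10 genes, whereas they did not overlap in 13.5% of all genes. The median difference of the 10 was -0.0065, with 5 above 0 and 5 below, and that of all genes was 0.003. Among the 21 probe sets 0 passed and 0 were without overlap, beside 0% and 12.6% of the 34945 probe sets with 1 gene.

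**Figure D1:**
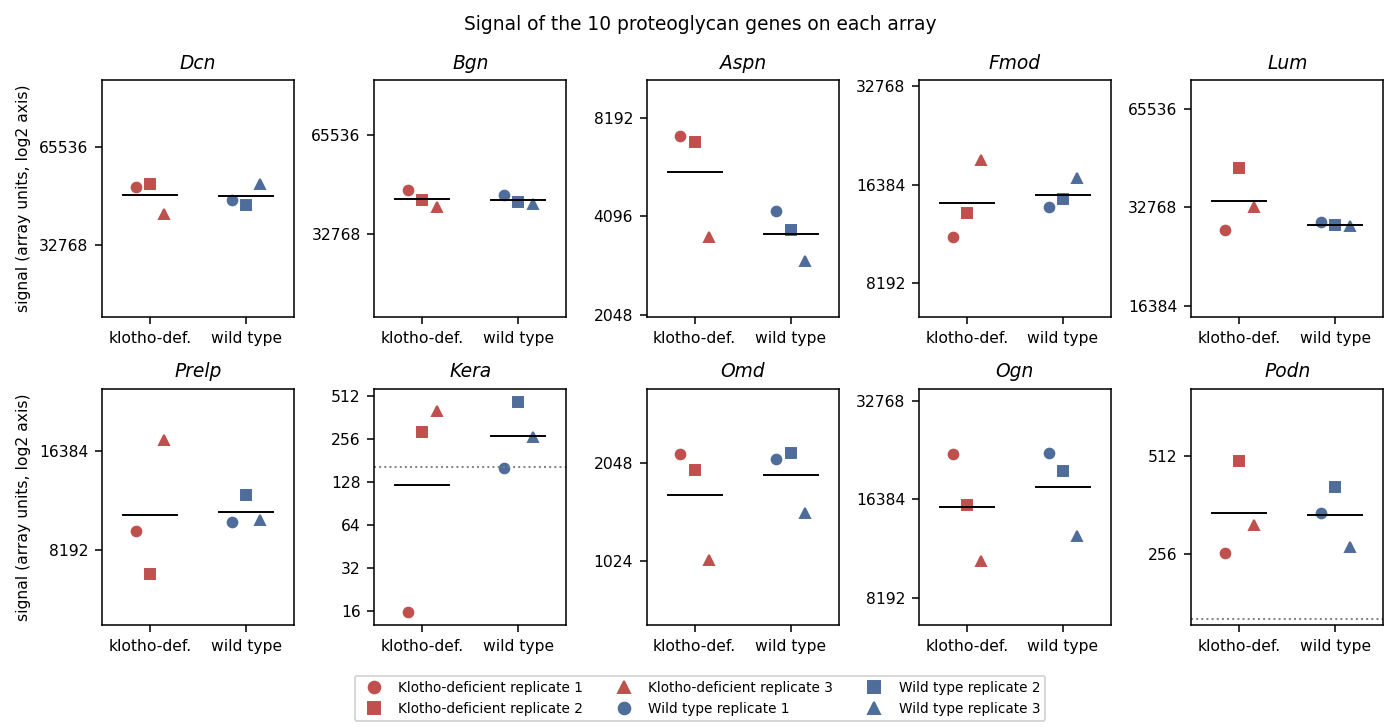
Signal of the brightest probe set of each gene on every array, on a log2 axis in array units, with klotho-deficient arrays at the left and wild-type arrays at the right of each panel. Symbols give the replicate, black lines are the means of the log2 values (n = 3), and the dotted line in the Kera and Podn panels is the highest Bacillus control at 161.8. Klotho-deficient and wild-type arrays overlap in every panel, and the klotho-deficient arrays are spread more widely.

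Among class I genes, decorin and biglycan were nearly equal in the 2 genotypes. Dcn encodes decorin, which coats collagen fibrils and binds TGF-beta, and its brightest probe set measured 49302.2, 50524 and 40891.4 on the klotho-deficient arrays and 44926, 43575.4 and 50490.4 on the wild-type arrays. The klotho-deficient arrays held both the lowest and the highest value. The difference was 0.01 ± 0.18 (SE, n = 3 pools per genotype, limma adjusted p = 0.993), with a 95% interval from -0.42 to 0.45.

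Biglycan, encoded by the X-linked gene Bgn and also known as a ligand of Toll-like receptors when released, measured 44570.3, 41690.2 and 39457.1 on the klotho-deficient arrays and 42920.9, 41031.6 and 40496.1 on the wild-type arrays. These 6 values lay within a narrow band. The difference was 0.01 ± 0.16 (limma adjusted p = 0.993), and its 95% interval corresponds to 0.77-fold to 1.32-fold.

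Other probe sets of these 2 genes gave other values. The second Dcn probe set was dimmer at 3165.9, 4291.1 and 1247.1 on the klotho-deficient arrays and 2022.9, 2141.3 and 1126.4 on the wild-type arrays, a difference of 0.60 that did not pass (limma adjusted p = 0.903 over all probe sets). On it replicate 3 was the lowest of each genotype, which was not so on the bright Dcn probe set. For Bgn, the probe set whose name ends _a_at gave -0.19 and the one whose name ends _x_at gave -0.31, so the sign depended on the probe set. The ending _x_at marks probe sets with probes that can match other transcripts.

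Asporin had the largest difference among the 9 genes other than the dim Kera. Aspn encodes a class I protein without the usual glycosaminoglycan attachment that binds collagen and, in cartilage, restrains TGF-beta signalling. It measured 7201.6, 6912.9 and 3551.6 on the klotho-deficient arrays, against 4259.7, 3730.8 and 2987.2 on the wild-type arrays. Klotho-deficient replicates 1 and 2 lay above all 3 wild-type arrays, and replicate 3 lay between the lowest and the middle wild-type value. The fold was 1.55 (difference 0.63 ± 0.33, limma adjusted p = 0.802), with a 95% interval from 0.89-fold to 2.71-fold.

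The other Aspn probe set had the same order, at 5248.4, 5189.9 and 2546.9 on the klotho-deficient arrays and 3012.4, 2959.7 and 1609.6 on the wild-type arrays, a difference of 0.76 (limma adjusted p = 0.862 over all probe sets). Without klotho-deficient replicate 3 the difference of Aspn was 0.96 (limma adjusted p = 0.523), and without klotho-deficient replicate 1 it was 0.45.

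Class II genes included the keratan sulfate proteoglycans of the fibril surface. Fibromodulin, from Fmod, guides collagen cross-linking and fibril growth in tendon, and its brightest probe set measured 11341.8, 13466.4 and 19447.8 on the klotho-deficient arrays and 14010.5, 14859.3 and 17130.6 on the wild-type arrays. Klotho-deficient replicate 3 was the highest of all arrays and klotho-deficient replicate 1 the lowest. The difference was -0.09 ± 0.25 (limma adjusted p = 0.961).

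Fmod had 6 probe sets, 5 of them of the _x_at kind. The one that is not measured 3599.2, 3962.8 and 9059.7 on the klotho-deficient arrays and 5439.9, 5591.1 and 6256.2 on the wild-type arrays, so klotho-deficient replicates 1 and 2 lay below every wild-type array and replicate 3 above. All 6 probe sets had klotho-deficient replicate 3 highest and klotho-deficient replicate 1 lowest of all arrays. Their differences ran from -0.23 to -0.09.

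Lumican, which regulates collagen fibrils in cornea, skin and heart valves, is encoded by Lum with 1 probe set. It measured 27991.3, 43206 and 32812.8 on the klotho-deficient arrays and 29436.6, 28822.1 and 28731.2 on the wild-type arrays. Klotho-deficient replicates 2 and 3 were above all wild-type arrays and replicate 1 was below them. The difference was 0.23 ± 0.21 (limma adjusted p = 0.869), and without klotho-deficient replicate 2 it was 0.06.

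Prelp encodes a class II protein with a basic, heparin-binding end that links basement membrane to collagen. It measured 9391.4, 6924.7 and 17744 on the klotho-deficient arrays and 9982.7, 12088.5 and 10101.2 on the wild-type arrays. The highest and the lowest value were klotho-deficient replicates 3 and 2, a 2.56-fold range within the genotype beside 1.21-fold in wild type. The difference was -0.03 ± 0.37 (limma adjusted p = 0.993), and it was 0.27 without klotho-deficient replicate 2 and -0.41 without klotho-deficient replicate 3.

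Osteomodulin, from Omd, is a class II protein best known from bone and tooth matrix. It measured 2181.7, 1950.6 and 1031.2 on the klotho-deficient arrays and 2105.1, 2187.7 and 1442.5 on the wild-type arrays. In each genotype replicate 3 was lowest and the other two arrays lay close together. The difference was -0.20 ± 0.35 (limma adjusted p = 0.931).

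Keratocan, the corneal keratan sulfate proteoglycan encoded by Kera, was near background. Its signals were 15.8, 285.8 and 402.9 on the klotho-deficient arrays and 159.5, 460.4 and 264.6 on the wild-type arrays, so klotho-deficient replicate 1 and wild-type replicate 1 were under the highest Bacillus control. The difference of -1.14 ± 1.26 (limma adjusted p = 0.892) rested on klotho-deficient replicate 1, without which it was 0.34.

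Ogn, of class III, encodes osteoglycin or mimecan, a collagen-binding protein abundant in the vessel wall. It measured 22571.2, 15708.8 and 10659.7 on the klotho-deficient arrays and 22667.9, 20064.8 and 12703 on the wild-type arrays. The arrays of the 2 genotypes with the same replicate number stood in the same order, with replicate 1 highest and replicate 3 lowest in each. The difference was -0.20 ± 0.36 (limma adjusted p = 0.932), and the second probe set gave -0.12.

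Podocan, the class V protein from Podn, was dim, at 257.5, 493.9 and 313.7 on the klotho-deficient arrays and 342.5, 411 and 269.1 on the wild-type arrays. The groups overlapped throughout, and the difference was 0.02 ± 0.31 (limma adjusted p = 0.993).

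**Figure D2:**
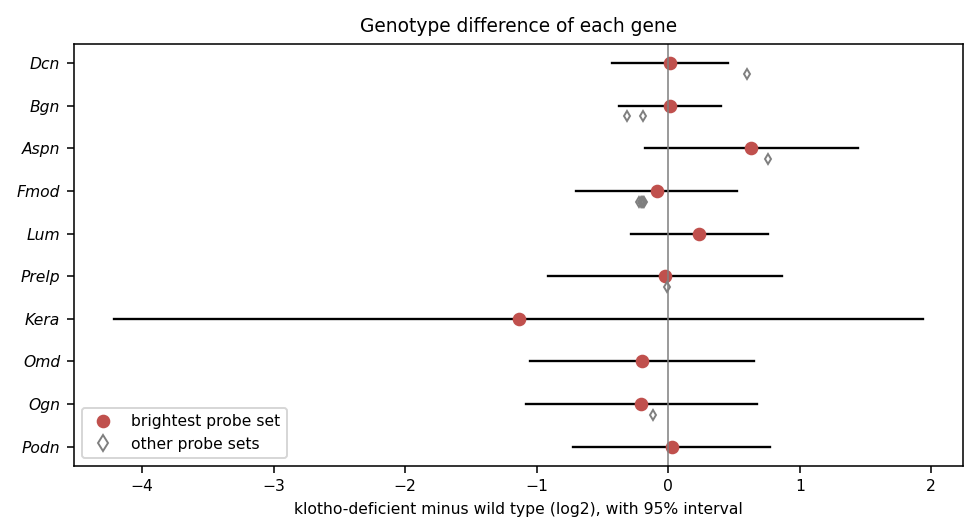
Klotho-deficient minus wild-type difference of each gene in log2 units, with filled points for the brightest probe set, lines for its 95% interval from limma (3 arrays per genotype) and open diamonds for the other probe sets. Every interval spans 0, Aspn having the interval from -0.18 to 1.44 and Kera the widest.

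The klotho-deficient pools differed more among themselves than the wild-type pools did. The range over the 3 arrays was larger in klotho-deficient roots for 10 of the 10 genes on their brightest probe sets, beside 58.5% of the 13322 genes with a mean above the highest Bacillus control. Over all probe sets it was larger for 20 of 21, the exception being the Bgn probe set whose name ends _a_at (0.26 over klotho-deficient arrays and 0.44 over wild-type arrays, log2). For the 10 genes the median range was 0.98 over klotho-deficient arrays and 0.40 over wild-type arrays (log2), and for the genes above background it was 0.51 and 0.43. Lum, for example, had a 1.54-fold range over klotho-deficient arrays beside 1.03-fold over wild-type arrays. A larger klotho-deficient range was not particular to the 10 genes, as every smooth muscle marker had it too. Acta2, for example, ran from 44421.8 to 63990.8 on the klotho-deficient arrays and from 52022 to 58012.7 on the wild-type arrays. The endothelial marker Vwf went the other way, at 6213.2 to 8644.4 and 5664.2 to 14243.5.

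**Figure D3:**
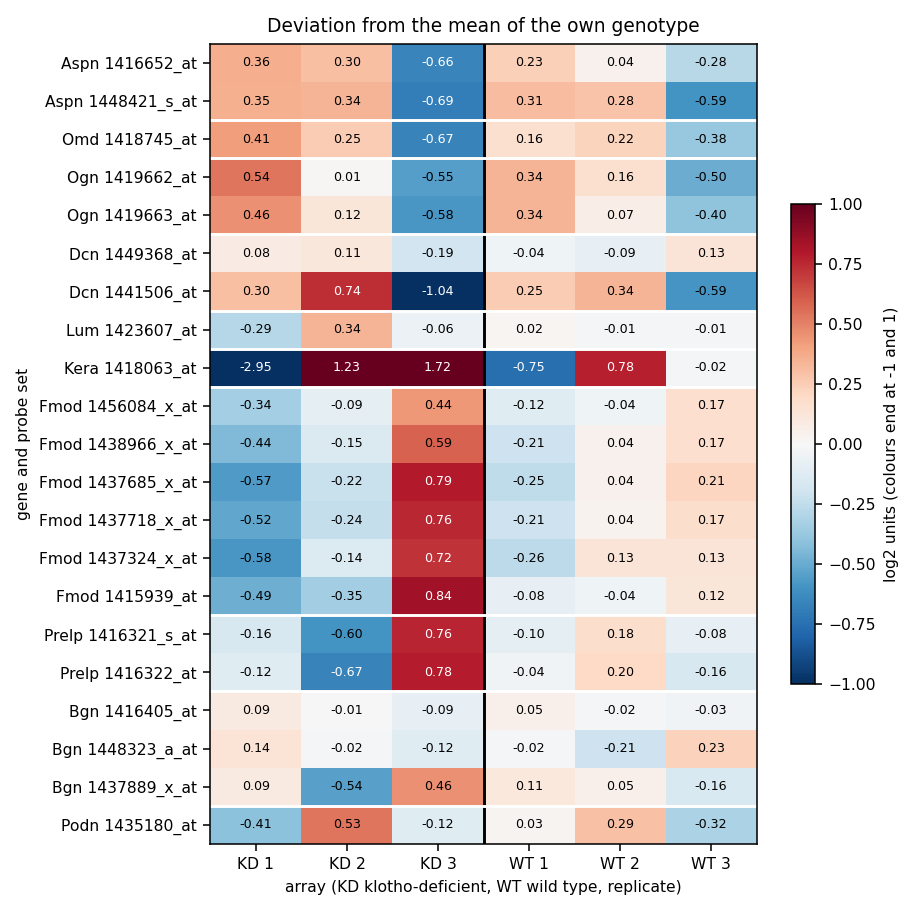
Deviation of each of the 21 probe sets from the mean of its own genotype in log2 units, with arrays in columns (klotho-deficient at the left) and probe sets in rows grouped by gene. The 5 probe sets of Aspn, Omd and Ogn are below their genotype mean on replicate 3 of each genotype, and the 8 of Fmod and Prelp are highest on klotho-deficient replicate 3, from 0.44 to 0.84 above the mean.

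Within the genotypes, 2 groups of neighbouring genes each shared an extreme array, 1 of them on the klotho-deficient arrays only. Dcn, Lum and Kera, neighbours on chromosome 10, did not share one. Their lowest klotho-deficient array was replicate 3 for Dcn and replicate 1 for Lum and Kera. Their highest was replicate 2 for Dcn and Lum and replicate 3 for Kera. Aspn, Omd and Ogn, the chromosome 13 neighbours, were lowest on replicate 3 in both genotypes, on 5 of their 5 probe sets. Their mean log2 signal relative to wild type was 0.51, 0.26 and -0.55 on klotho-deficient replicates 1, 2 and 3, and 0.24, 0.14 and -0.39 on wild-type replicates 1, 2 and 3. The adjoining family gene Ecm2, which encodes an extracellular matrix protein with leucine-rich repeats, measured 2713.9, 3042.6 and 727.4 on the klotho-deficient arrays and 2644.2, 2201.4 and 1674.7 on the wild-type arrays, in which replicate 3 was again lowest in each genotype. Of all genes above background 15.5% were lowest on replicate 3 in both genotypes, and of the 10 proteoglycan genes 4 were, the other one being Bgn with much smaller steps.

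Fmod and Prelp, adjacent on chromosome 1, were both highest on klotho-deficient replicate 3, while the lowest klotho-deficient array was replicate 1 for Fmod and replicate 2 for Prelp. Their mean log2 signal relative to wild type was -0.31, -0.40 and 0.54 on klotho-deficient replicates 1, 2 and 3, against -0.11, 0.07 and 0.04 on wild-type replicates 1, 2 and 3. Optc, the opticin gene next to Prelp, did not share it, at 3385.8, 2086.4 and 3411.8 on the klotho-deficient arrays and 3292.7, 3812.6 and 2775.2 on the wild-type arrays. Among the wild-type arrays Fmod was highest on replicate 3 and Prelp on replicate 2. Of all genes above background, 43.1% were highest on klotho-deficient replicate 3 within their genotype, and so were 3 of the 10, Fmod, Prelp and Kera. Being highest there was thus not particular to Fmod and Prelp.

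Some marker lists had their highest mean on the same array as Fmod and Prelp. The 7 cartilage markers above background were Sox9, Acan, Col2a1, Col9a1, Hapln1, Comp and Cnmd. Relative to wild type they averaged -0.22, 1.23 and 2.00 on klotho-deficient replicates 1, 2 and 3. On wild-type replicates 1, 2 and 3 they averaged -0.16, 0.31 and -0.15. Hapln1 did not follow the mean, at 1377.5, 2285.1 and 1782 on the klotho-deficient arrays and 2412.1, 2049 and 1085.3 on the wild-type arrays. Of all 10 cartilage markers 8 had a difference above 0 and 2 below, Col11a2 at -0.26 and Matn1 at -0.65. The summed signal of all 10 cartilage markers ran from 7781 to 38494 on the klotho-deficient arrays and from 9450 to 12166 on the wild-type arrays. Tendon and ligament markers, 6 of them above background, averaged -0.56, 0.13 and 0.66 on the klotho-deficient arrays. On the wild-type arrays they averaged -0.08, 0.04 and 0.04. Sums of all 7 measured were 19620 to 35074 and 19827 to 22778. Differences of the 7 were above 0 for 5 and below 0 for 2, Scx at -0.26 and Tnmd at -0.89. On klotho-deficient replicate 3 Tnc (5353.7) and Thbs4 (2688.2) were above all other arrays. Scx (340.2) and Tnmd (223.6) were there within the range of the wild-type arrays. The 5 melanocyte markers averaged 0.69, -0.93 and 0.74 on the klotho-deficient arrays and -0.12, -0.06 and 0.18 on the wild-type arrays, and summed to 2060 to 5326 and 2889 to 3836. Klotho-deficient replicate 3, where Fmod and Prelp were highest, was the highest array for the means of all 3 lists. Lists of related genes described below were also highest on that array. They were other family genes (0.50), fibril collagens and partners (0.22), linker and chondroitin or dermatan sulfate enzymes (0.13), and ligands, receptors and proteases (0.25). Keratan sulfate enzymes were not (-0.34). On klotho-deficient replicate 2, where the mean of Fmod and Prelp was lowest, cartilage markers were at 1.23 and melanocyte markers at their lowest. Taken singly, Fmod had the klotho-deficient order of the cartilage and the tendon and ligament lists, and Prelp that of the melanocyte list. The part of these tissues in the result was not tested.

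Adipocyte markers were lowest on replicate 3 in both genotypes, as the chromosome 13 genes were. The 3 above background averaged 0.47, 0.13 and -0.81 on the klotho-deficient arrays and 0.47, 0.06 and -0.53 on the wild-type arrays, and all 4 measured summed to 20978 to 36107 and 30246 to 37170. Mesothelial markers were lowest on klotho-deficient replicate 3 at -1.22 but highest on wild-type replicate 3 at 0.52, with sums of 17029 to 31275 and 31408 to 51740. Fibroblast and valve interstitial markers averaged -0.27 to -0.14 on the klotho-deficient arrays and -0.02 to 0.04 on the wild-type arrays, without overlap, with sums of 165778 to 192039 and 184915 to 197286. Of these 10 markers 3 were without overlap (30%, beside 13.5% of all genes), all lower in klotho-deficient roots (Pi16 at -0.76, Thy1 at -0.74 and Fbln1 at -0.28), and 0 passed. The differences of the 10 were above 0 for 5 and below 0 for 5. The share without overlap was 66.7% of 6 mesothelial and 37.5% of 8 endothelial markers, and 0% in the other marker lists. Of the marker lists, only that of tendon and ligament held a marker under the highest Bacillus control on every array. The adipocyte marker Lep was under it on klotho-deficient replicate 3 (37.4) and wild-type replicate 3 (139.1). The part of these cell types in the levels of Aspn, Omd and Ogn was not tested.

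In none of the 11 marker lists did a gene pass over all genes. Median differences were -0.07 for fibroblast and valve interstitial, 0.08 for smooth muscle, -0.41 for endothelial, -0.04 for cardiomyocyte, 0.69 for cartilage, 0.18 for tendon and ligament, 0.15 for macrophage, -0.21 for adipocyte, -0.73 for mesothelial, 0.27 for melanocyte and 0.29 for Schwann cell markers. Cartilage and mesothelial markers thus stood farthest from the median of all genes.

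**Figure D4:**
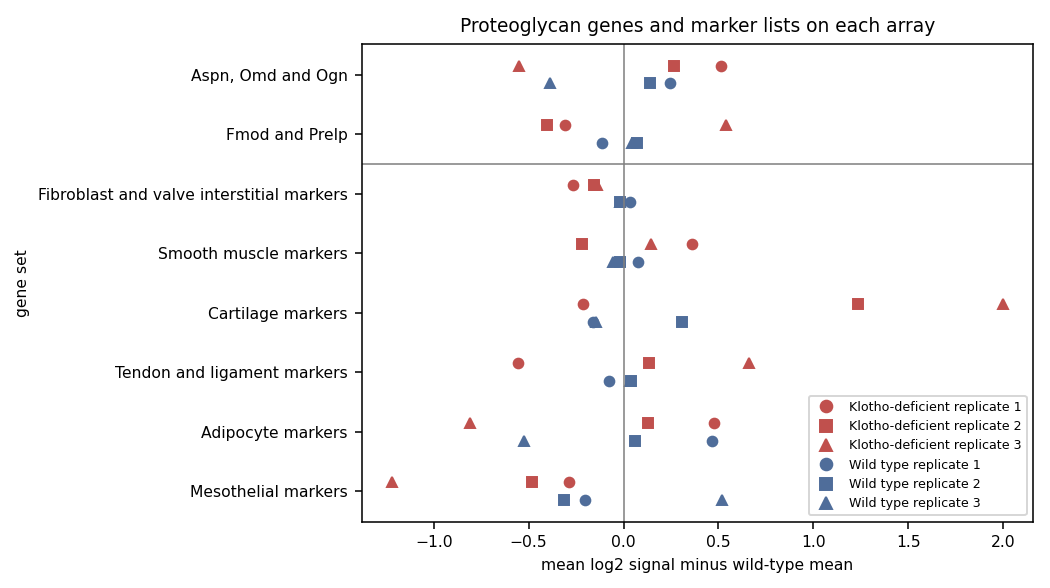
Mean log2 signal minus the wild-type mean for Aspn, Omd and Ogn, for Fmod and Prelp, and for 6 marker lists below the line, with 1 point per array (klotho-deficient above wild type in each row, symbols giving the replicate). Klotho-deficient replicate 3 is lowest for Aspn, Omd and Ogn at -0.55 and highest for Fmod and Prelp at 0.54, for cartilage markers at 2.00 and for tendon and ligament markers at 0.66.

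Other genes of the family and of the assembly of these proteoglycans gave no calls over all genes. Of 7 further family genes 5 were measured, 0 passed, and their median difference was -0.18. Epyc, the cartilage proteoglycan epiphycan beside Kera, measured 1363.8, 5386.4 and 3693 on the klotho-deficient arrays and 1977.2, 3006.2 and 1727.3 on the wild-type arrays. Chad, chondroadherin of cartilage, measured 166.3, 414.3 and 4638.8 on the klotho-deficient arrays and 366, 1285.3 and 761.3 on the wild-type arrays, so its klotho-deficient mean rested on replicate 3. Nyx, the retinal protein nyctalopin, was below the highest Bacillus control on every array.

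Of 13 collagens and partners of fibrils, 0 passed, 2 were without overlap between genotypes (15.4%, beside 13.5% of all genes) and the median difference was -0.05. Col14a1, a collagen that sits on fibril surfaces, measured 5205.2, 4497.2 and 6224.2 on the klotho-deficient arrays and 6910.5, 7475.1 and 6513.6 on the wild-type arrays, a difference of -0.40 ± 0.19 (limma adjusted p = 0.794). Col11a1, which nucleates cartilage fibrils, measured 163.3, 1306.1 and 1500.7 on the klotho-deficient arrays and 297.6, 448.2 and 227 on the wild-type arrays, which overlapped.

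Enzymes that build the sugar chains were counted in 2 lists. Of 21 measured genes for the linker and for chondroitin or dermatan sulfate, 0 passed and 4 were without overlap (19%, beside 13.5% of all genes), with a median of -0.10. B4galt7, which adds the first galactose of the linker, measured 928.8, 1262.4 and 1740.8 on the klotho-deficient arrays and 1786.3, 1855.7 and 2147 on the wild-type arrays (-0.60 ± 0.27, limma adjusted p = 0.77). Chst3, a chondroitin 6-sulfotransferase, was dim at 136.9, 193.5 and 153.1 on the klotho-deficient arrays and 302, 223.9 and 268.1 on the wild-type arrays (-0.72 ± 0.22, limma adjusted p = 0.697).

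Of 10 genes for keratan sulfate, 9 had a difference below 0, beside 49.6% of all genes, with a median of -0.24. Of these 0 passed and 2 were without overlap (20%, beside 13.5% of all genes). B4galt4, a galactosyltransferase of keratan sulfate chains, measured 698.5, 510 and 714.8 on the klotho-deficient arrays and 883.2, 833.7 and 1047.5 on the wild-type arrays (-0.53 ± 0.21, limma adjusted p = 0.77). St3gal1, a sialyltransferase, measured 2955.5, 3185 and 4155.5 on the klotho-deficient arrays and 4675.7, 4365 and 6395.4 on the wild-type arrays, with the same adjusted p from limma.

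Ligands, receptors and proteases of these proteoglycans had a median of -0.01 over 18 genes, with 0 past the threshold and 3 without overlap (16.7%, beside 13.5% of all genes). Tgfb3, a TGF-beta ligand of the kind that decorin, biglycan and fibromodulin bind, measured 7500.6, 5559.5 and 7640.2 on the klotho-deficient arrays and 10241.6, 8856.7 and 11054.9 on the wild-type arrays (-0.55 ± 0.21, limma adjusted p = 0.763). Met, a receptor tyrosine kinase that decorin binds, measured 1315.3, 1189.6 and 1222.8 on the klotho-deficient arrays and 1796.2, 1497.1 and 1822.2 on the wild-type arrays (-0.45 ± 0.17, limma adjusted p = 0.763).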

How the data were processed

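RNA of aortic roots, pooled from 3 mice per array, was measured on 6 Affymetrix mouse arrays. The deposited values were linear intensities for 45101 probe sets, from 0.1 to 131884.9. The submitters' processing notes name RMA, and the sources used here do not say how the linear scale arose. Trimmed of 2% at each end, the mean was 1500 on every array, and medians were 425.6 to 556.6, so the authors' values had been scaled but did not share 1 distribution. No detection calls were used, and the number of arrays limits the precision.

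Values were log2-transformed with no pseudocount. Each gene was represented by its probe set of highest mean log2 signal. Of all probe sets 34945 had 1 gene in the platform annotation, 932 several and 9160 none, and 64 were controls. Genotypes were compared over all 18193 genes, and over all probe sets with 1 gene, by two-sided moderated tests in limma 3.58.1 (R 4.3.3), adjusted by Benjamini-Hochberg with a threshold of 0.05, on 4 residual and 2.1 prior degrees of freedom. The procedure was tested on simulated data. Members and gene lists were chosen with earlier results of these data known, and no test was made over a list. Named genes were all members and, from each of the lists of related genes, the 2 of smallest p, with family genes and neighbours chosen after their values were seen. Marker lists covered fibroblasts, smooth muscle, endothelium, cardiomyocytes, cartilage, tendon, macrophages, adipocytes, mesothelium, melanocytes and Schwann cells. Alternatives were quantile normalization, a replicate block, arrays centred on their medians, a filter on dim genes, a trended and robust prior, array weights, the mean of a gene's probe sets, 100 added before the log, a covariate for the 2 arrays lacking Y-linked transcripts and each array left out. Both replicates 3 left out and the other probe sets of a gene were added after the data were seen. Plots were made in Python 3.11.15 with matplotlib 3.10.9.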

Additional observations from a re-analysis of the deposited data

How the results depend on the processing

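None of the 10 genes and none of their 21 probe sets passed in limma under any alternative. The replicate numbers paired the arrays weakly at most. Correlations of same-numbered deviations from the genotype means were 0.17, -0.01 and 0.16 for replicates 1, 2 and 3. Klotho-deficient replicates 1 and 3 correlated best with the wild-type array of the same number, and klotho-deficient replicate 2 with wild-type replicate 1. Replicate 3 was lowest in both genotypes for 15.5% of genes above background and highest in both for 21.3%. With a replicate block the count over all genes stayed 0, and the adjusted p of Aspn was 0.725. Genes higher over all genes numbered 1 when dim genes were left out, with array weights or with 100 added before the log, and 2 with a trended and robust prior. Genes lower numbered 0 to 1 as single arrays were left out.

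Aspn kept its direction under all 17 alternatives, from 0.45 to 0.99, the last with the covariate for Y-linked transcripts. That covariate marks klotho-deficient replicates 2 and 3, so the difference under it compares klotho-deficient replicate 1 alone with wild type. Under it Lum turned to -0.051, Omd to 0.21, Ogn to 0.33 and Podn to -0.38, and Kera was -4.1. Prelp was 0.024 after quantile normalization, and Podn was -0.19 with array weights and -0.073 without both replicates 3. Bgn was -0.16 as the mean of its probe sets and -0.19 and -0.31 on its other probe sets. With single arrays left out, signs turned for Dcn (-0.042 to 0.11), Bgn (-0.032 to 0.056), Fmod (-0.31 to 0.083), Prelp (-0.41 to 0.27), Kera (-2.0 to 0.34), Omd (-0.41 to 0.13), Ogn (-0.47 to 0.070) and Podn (-0.24 to 0.23). The cause was not tested. Kera was the gene with arrays under the highest Bacillus control, on 2 of 6 arrays, and its values there limit its difference.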

Other observations

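Genes near the proteoglycan genes in order of first coordinate, and not of the family, were read after the patterns had been seen. Whether the bodies of these genes overlap was not examined. Cenpp, a centromere protein gene, has its first coordinate before that of Ecm2 on chromosome 13. It measured 1673.5, 1964.3 and 585.9 on the klotho-deficient arrays and 871.6, 898.8 and 715 on the wild-type arrays. Nol8, a nucleolar protein gene after Ogn, measured 1405.5, 2463.6 and 915.4 on the klotho-deficient arrays and 1607.1, 1565.4 and 1096.5 on the wild-type arrays. Both were lowest on replicate 3 in each genotype, as Ecm2, Aspn, Omd and Ogn were. Farther out, Ippk measured 2526.5, 2683.6 and 2828.7 on the klotho-deficient arrays and 2624, 2475.5 and 2217.2 on the wild-type arrays. Iars, on the other side, measured 3267.7, 3246.4 and 3369.5 on the klotho-deficient arrays and 3567.8, 2850.3 and 3791.7 on the wild-type arrays. Ippk and Iars were not lowest on replicate 3 in both genotypes.

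Atp2b4, a calcium pump gene on the far side of Optc from Prelp, measured 1399.2, 1248.5 and 330.3 on the klotho-deficient arrays and 909, 749.6 and 521.1 on the wild-type arrays. It too was lowest on replicate 3 in each genotype, unlike Prelp and Fmod. Btg2, a growth-arrest gene on the other side of Fmod, measured 6087.7, 3226.1 and 9372.5 on the klotho-deficient arrays and 3978.9, 2677.4 and 4376.6 on the wild-type arrays, with klotho-deficient replicate 3 highest as for Fmod and Prelp. Lax1, beyond Atp2b4, was lowest on replicate 3 in each genotype (329.9 and 170.3). Chit1, beyond Btg2, was highest on replicate 3 in each (329.7 and 275.2). Btg1, before Dcn on chromosome 10, was highest on klotho-deficient replicate 3 (18473.1) and lowest on wild-type replicate 3 (14328.7).

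The longest run of letters shared by 2 of the 5 promoter windows was 11 bases, found in 2 pairs of genes. Fmod and Ogn share ttattcagcag, which begins 6 bases after the annotated start in Fmod and at -6 in Ogn. On either strand it was found in 6 of 32851 windows of this length (0.0183%). Fmod and Prelp share ccctccctctc, which was found in 80 windows (0.244%). Both runs were chosen for their length over all pairs of the 5 windows, so these shares do not measure how unusual they are.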
